A study of Mus musculus with 18 samples.

Results

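Gene expression in reperfused mouse liver was compared between animals given oridonin and animals without it. Oridonin is a diterpenoid made by the plant Isodon rubescens. The comparison takes all 6 libraries labelled IR-Ori and all 6 labelled IR, 12 of the 18 libraries of the study, and the other 6, labelled sham, are given beside them as the level without ischemia. All mice were wild-type C57BL/6. In IR and IR-Ori alike, clips on the portal triad cut the blood flow to the median and left lobes, about 70% of the liver, for 1 h, and 6 h of reperfusion followed. Sham mice were anaesthetised and had a laparotomy. No label states the dose, route or time of oridonin, a vehicle for the IR mice, the age of the mice or the lobe taken for RNA. Nor does a label tie each library to an animal of its own, so the p-values rest on the spread among these libraries, which may be partly technical.

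When blood returns to an ischemic liver, oxidants and misfolded proteins activate stress programmes in hepatocytes. The heat shock factor Hsf1 turns on chaperone genes, MAP kinases turn on immediate early genes such as Fos and Jun, and Nfe2l2 (NRF2) turns on antioxidant genes. Resident macrophages and injured hepatocytes release chemokines and interleukin 1, which draw neutrophils and monocytes into the tissue. Oridonin is known as a compound that binds cysteine residues, and the inflammasome sensor Nlrp3 is among its known targets.

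Heat shock genes were among the largest falls with oridonin, and the promoters of several of them, though not of all, carry the element that Hsf1 is known to bind. RefSeq promoter windows on GRCm38.p6 (250 bases before to 50 after a start) were found for 10562 of the 14595 genes tested, in 13549 windows. They were searched on both strands for GAANNTTCNNGAA with at most 1 of its 9 fixed letters changed, a form chosen after the exact letters had been searched. The stretches below show the matches in the 250 bases before the start in capitals, 5′ to 3′ on the strand of the gene, for 5 promoters of genes that fell. Matches in the 50 bases after a start, of which Hsph1 has 2, are not shown. Hspa1a and Hspa1b, near-identical neighbouring genes, have the same stretch, and Hspe1 shares its stretch with Hspd1 in the opposite direction.
Hspa1a (chr17:34972233-34972290, minus strand): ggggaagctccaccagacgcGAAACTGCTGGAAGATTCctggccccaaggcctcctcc
Hspb1 (chr5:135887782-135887834, plus strand): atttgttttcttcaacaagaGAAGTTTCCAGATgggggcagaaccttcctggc
Hsph1 (chr5:149636332-149636389, minus strand): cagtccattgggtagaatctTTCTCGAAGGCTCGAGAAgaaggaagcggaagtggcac
Hspe1 (chr1:55088039-55088096, plus strand): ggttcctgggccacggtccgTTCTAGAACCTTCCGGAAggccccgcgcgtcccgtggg
Dnaja1 (chr4:40722319-40722371, plus strand): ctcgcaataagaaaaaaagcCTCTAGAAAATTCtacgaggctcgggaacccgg
In the genes of the heat shock list 14 of 28 windows (50%) held a match, against 5.57% of all windows, 9.56% of windows of genes that fell and 4.88% of windows of genes that rose. These 28 windows belong to 21 of the list's 26 genes, and 12 of the 21 (57.1%) had a match, against 6.51% of all genes with a window. The windows are not independent: those of Hsph1 overlap, as do those of Dnajb6, and the copies and shared stretch above count more than once. The exact letters were in 25% of the list's windows and 0.472% of all. The CCT chaperonin genes had a match in 4 of 9 windows (44.4%), the immediate early list in 1 of 27 (3.7%) and the proteasome in 2 of 29 (6.9%). Match and fall did not always go together in the heat shock list. Dnajb1, Bag3, Hspa4l and Hspb8 fell and had no match in their windows. Ahsa1, Chordc1, Dnajb6 and Fkbp4 had a match and were not called. A match describes the letters of a window and does not show a site in use.

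Libraries of the compared groups held 12449529 to 16625908 counts. The groups differed in spread as well as in level. The mitochondrial genome supplied 19.2 ± 13% of the counts in IR (SD, n = 6, from 6.52% in IR 6 to 42.9% in IR 1) and 27.1 ± 6.60% in IR-Ori (SD, n = 6, from 14.1% in IR-Ori 5 to 32.0% in IR-Ori 6), a difference of 7.86 percentage points that lay within the spread (exact two-sided permutation test, p = 0.212). In sham it supplied 21.9 ± 12.9% (SD, n = 6). Without IR 1 the difference was 12.6 points (exact permutation p = 0.0216). The 3 IR libraries under 15% (IR 4 to IR 6) stood apart from IR 1 to IR 3 in most stress genes, so results below are also given without them. Albumin (Alb), the main secreted protein of hepatocytes, was at 11677 to 18012 FPKM in IR and 14771 to 24134 in IR-Ori, as befits liver. FPKM, deposited by the authors, are counts scaled by gene length and library total.

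Of 14595 genes tested with edgeR at an adjusted p under 0.05, 439 fell with oridonin (3.01%) and 87 rose (0.596%), counts against which those of the gene groups below can be read. The falls were the larger changes. Their median log2 fold change was -1.68, 150 of the 439 were at least 4-fold and 59 at least 8-fold, and in 136 no IR-Ori library reached the level of any IR library. The rises had a median of 1.18, 10 of the 87 were at least 4-fold and 27 did not overlap. Over all genes tested, called or not, 1.1% were without overlap and lower in IR-Ori and 0.391% without overlap and higher. The median over all genes tested was 0.00. Protein-coding genes made up 428 of the falls and 69 of the rises. DESeq2 called 903 of 16864 genes lower (5.35%) and 428 higher (2.54%), a larger share of rises. On log2(FPKM + 1) limma called 95 of 11326 lower (0.839%) and 38 higher (0.336%). List counts by DESeq2 and limma can be read against these shares. For the fit over all libraries no share of all genes at an unadjusted p under 0.05 is given. List counts at that cutoff therefore stand without a background.

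Many of these calls were lost when IR 4, IR 5, IR 6 or any IR-Ori library other than IR-Ori 5 was left out. With each of the 12 libraries left out in turn, 122 of the 439 falls and 9 of the 87 rises were called every time. Leaving out IR 4, IR 5 or IR 6 left 140, 177 and 206 falls and 12, 11 and 23 rises, and leaving out IR 1, IR 2 or IR 3 gave 737, 665 and 647 falls and 319, 175 and 250 rises. Leaving out IR-Ori 1, IR-Ori 2, IR-Ori 3, IR-Ori 4 or IR-Ori 6 gave 156, 215, 224, 271 and 197 falls. The rises were then 26, 50, 38, 48 and 29. Without IR-Ori 5 there were 648 falls and 192 rises. Without IR 4 to IR 6 together, 29 genes fell (0.189% of those tested) and 0 rose by edgeR (0%, with 375 lower and 351 higher at an unadjusted p under 0.05), 26 of the 29 among the 439, and the median log2 fold change of the 439 was -0.71 and of the 87 0.90. Without IR 1 to IR 3 together, a setting added after the data were seen, 2043 fell and 2008 rose. With the mitochondrial share as a covariate 231 fell and 59 rose. With the replicate number as a block 135 fell and 28 rose, though no label says that the numbers pair the samples. What set IR 4 to IR 6 apart was not tested.

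**Figure D1:**
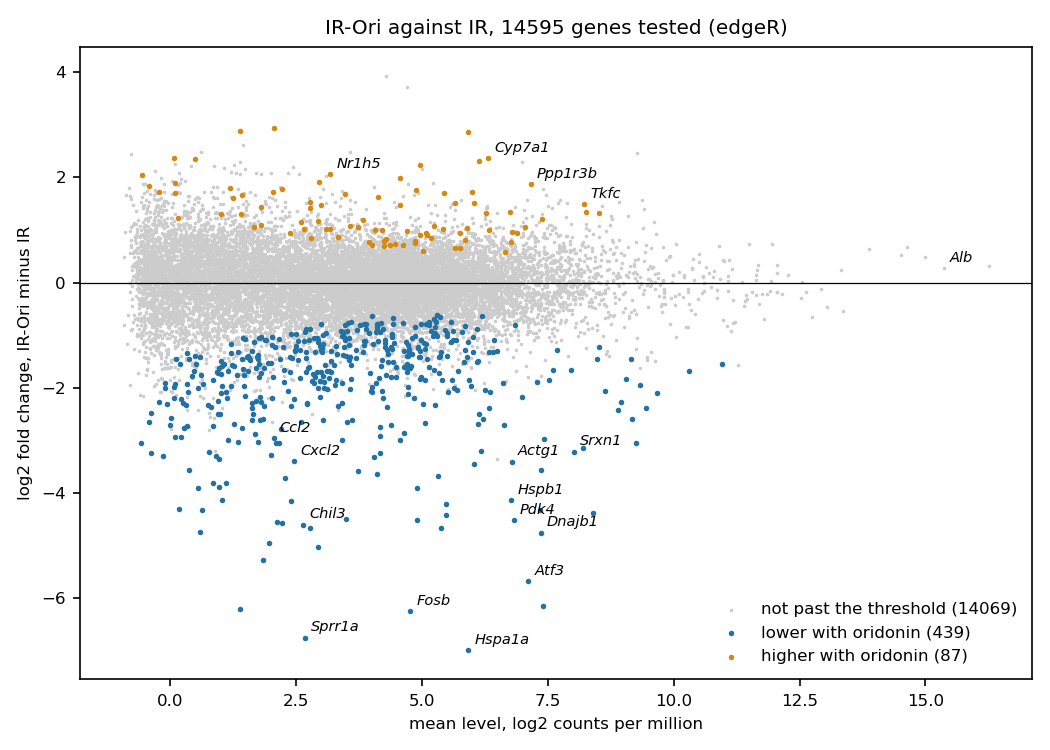
Each point is 1 of 14595 genes, with its mean level in log2 CPM (counts scaled to a common library size) on the x axis and its log2 fold change, IR-Ori minus IR, on the y axis. The 439 genes that fell (blue) reach far below zero, with Hspa1a and Sprr1a lowest among those named, and the 87 that rose (orange) stay closer to it.

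**Figure D2:**
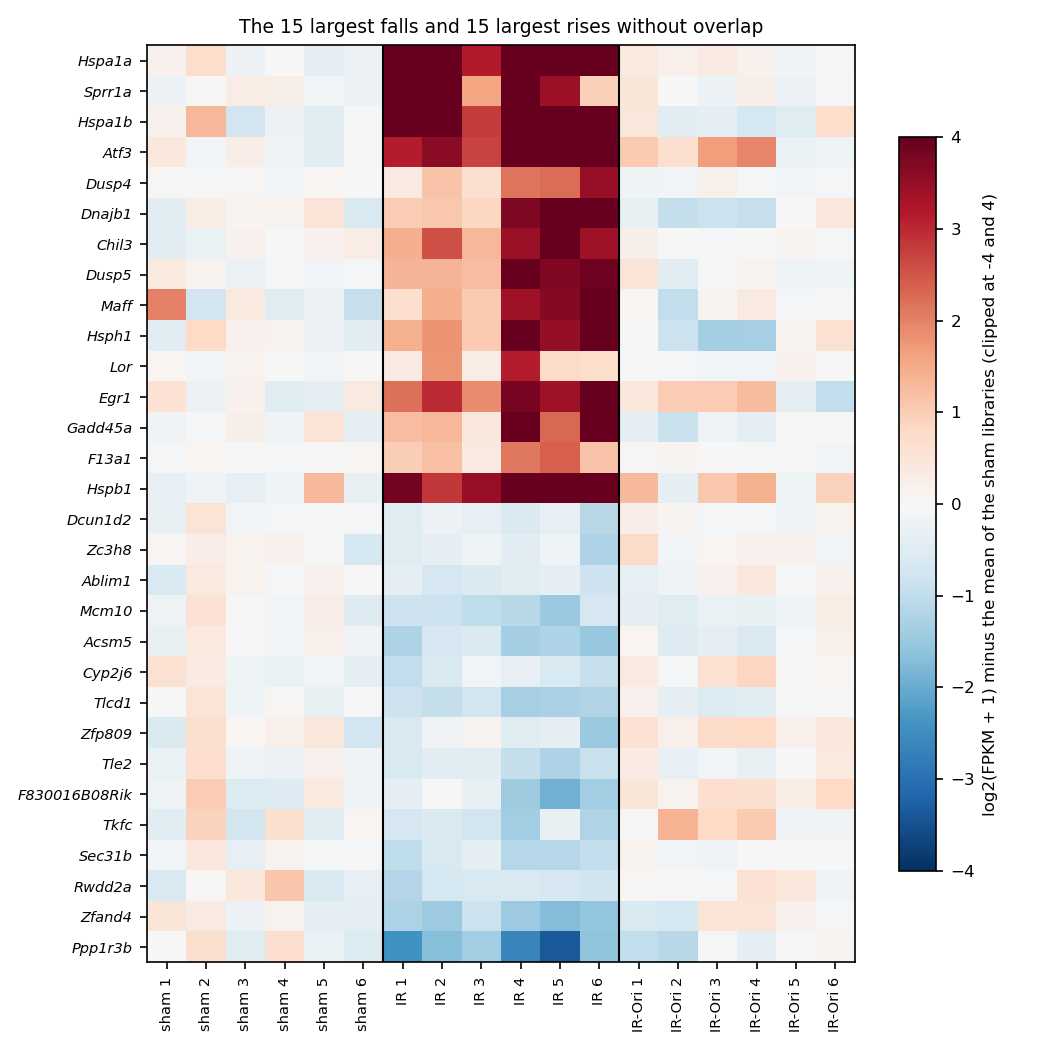
Rows are the 15 protein-coding genes with the largest falls and the 15 with the largest rises among called genes without overlap between IR-Ori and IR. The higher group of each averaged 1 FPKM or more, and columns are the 18 libraries. Colours give log2(FPKM + 1) minus the mean of the sham libraries, clipped at -4 and 4, and IR 4 to IR 6 show the deepest red in most of the upper rows.

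Hspa1a and Hspa1b, inducible chaperones, were among the genes that fell most. Of the 26 heat shock and co-chaperone genes listed, all 26 were tested, 15 fell and 0 rose, with a median log2 fold change of -1.66. Hspa1a (ENSMUSG00000091971, chromosome 17, 35188166 to 35191132, minus strand, GRCm39, protein-coding), the inducible Hsp70, ranged from 10.8 to 135 FPKM in IR (median 37.7), from 0.15 to 0.73 in IR-Ori (median 0.475) and from 0.02 to 1.11 in sham. The lowest IR library, IR 3, was still above every IR-Ori library, and IR-Ori and sham overlapped. It fell by 6.99 ± 0.79 on the log2 scale (SE, adjusted p = 0.000354), and by 5.98 without IR 4 to IR 6 (adjusted p = 0.00115). Hspa1b ranged from 24 to 502 FPKM in IR and from 1.18 to 4.83 in IR-Ori and fell by 6.14 ± 0.77. How reads divide between Hspa1a and Hspa1b is uncertain, since the genes are near-identical copies. Hspb1 (ENSMUSG00000004951, chromosome 5, 135916773 to 135918417, plus strand), a small heat shock protein that holds unfolded proteins, ranged from 68 to 572 FPKM in IR and from 6.67 to 25 in IR-Ori. It fell by 4.13 ± 0.55 (adjusted p = 0.000787), and by 2.73 without IR 4 to IR 6 (adjusted p = 0.0181). Hspa1a, Hspa1b and Hspb1 were the 3 members of the list still called without those libraries, where the median of the list was -0.40.

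Other chaperones that fell were highest in IR 4 to IR 6. Dnajb1, the Hsp40 that hands proteins to Hsp70, was at 15, 15.5 and 12.9 FPKM in IR 1 to IR 3, at 103, 134 and 551 in IR 4 to IR 6, and at 3.06 to 9.51 in IR-Ori. All 6 IR libraries lay above all 6 IR-Ori libraries. It fell by 4.75 ± 0.82 (adjusted p = 0.00529), and without IR 4 to IR 6 the log2 fold change was -1.51 (adjusted p = 0.104). Hsph1, a nucleotide exchange factor of Hsp70, fell by 4.37 ± 0.74 and the cytosolic chaperone Hsp90aa1 by 3.05 ± 0.51 (adjusted p = 0.00483 and 0.00429). Without IR 4 to IR 6 their values were -1.92 and -1.39 (adjusted p = 0.143 and 0.155). The mitochondrial chaperonin pair fell too. Hspe1, its lid, was at 97.6 to 112 FPKM in IR 1 to IR 3, 321 to 390.2 in IR 4 to IR 6 and at most 94.7 in IR-Ori (lowest 41.9), and fell by 1.85 ± 0.36 (adjusted p = 0.0109). Its barrel Hspd1 fell by 2.27 ± 0.52, and the constitutive Hsc70, Hspa8, by 1.54 ± 0.39. The calls of Hspd1 and Hspa8 were lost without one or more of IR 4, IR 5, IR 6, IR-Ori 1, IR-Ori 2, IR-Ori 3, IR-Ori 4 or IR-Ori 6 (highest adjusted p 0.0977, for Hspa8). Hspe1, Hspd1 and Hspa8 were named after their values were seen. Hsf1 itself had a log2 fold change of 0.35 (adjusted p = 0.387) and Hsf2 of 0.30 (adjusted p = 0.446), and neither passed.

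The CCT chaperonin and the proteasome, which degrades tagged proteins, gave no calls by edgeR but uniform signs. The 8 subunits of the CCT chaperonin, which folds actin and tubulin, were all tested, 0 were called by edgeR (6 had an unadjusted p under 0.05, all lower), 3 by DESeq2 and 0 by limma, and all 8 had a log2 fold change below 0 (median -0.61). The 33 proteasome genes tested had 0 calls by edgeR (21 at an unadjusted p under 0.05), 3 by DESeq2 and 0 by limma, 33 values below 0 and a median of -0.58. Without IR 4 to IR 6 these medians were -0.05 and -0.12. The score of a list, its mean log2(FPKM + 1) in a library, is plotted against the mitochondrial share. Heat shock scores were 4.32 to 4.58 in IR 1 to IR 3, 5.78 to 6.32 in IR 4 to IR 6, 3.31 to 4.03 in IR-Ori and 3.54 to 4.01 in sham, so every IR library was above every other. Sham 1, sham 3 and sham 4 also had a low share (10.3 to 12.4%), with heat shock scores of 3.75 to 4.01. Proteasome scores were 5.39 to 5.93 in IR 4 to IR 6, but also 4.94 to 5.18 in these 3 sham libraries, against 4.38 to 4.95 in IR 1 to IR 3, while IR-Ori ranged from 4.33 to 5.06. How far the share itself moves with these lists was not tested.

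**Figure D3:**
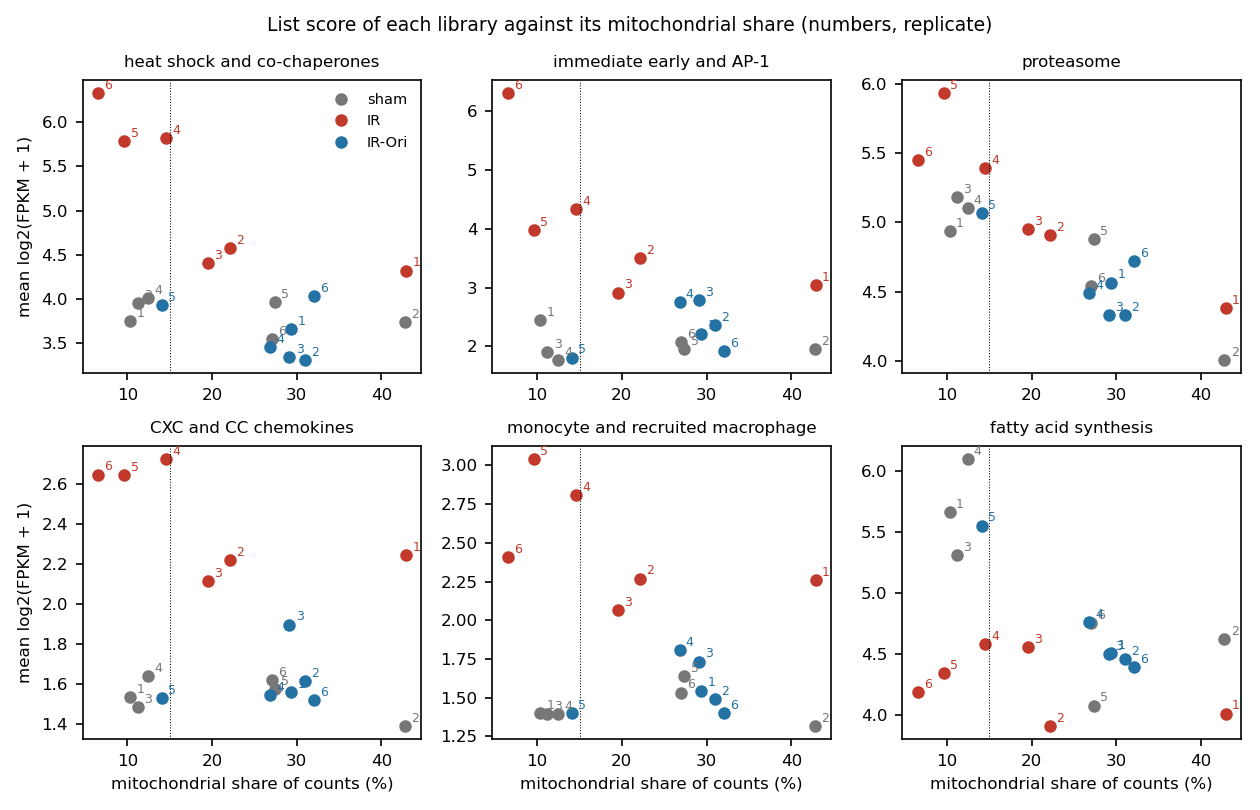
Each point is a library, with the percentage of its counts on the mitochondrial chromosome on the x axis and the mean log2(FPKM + 1) of a gene list on the y axis, coloured by group and numbered by replicate. IR 4 to IR 6 sit left of the dotted line at 15% with the highest heat shock scores, and IR-Ori 5 is the lone IR-Ori library on that side.

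Immediate early genes, the first targets of MAP kinase signalling, had the lowest median of all lists. Of 23 listed 21 were tested, 14 fell and 0 rose, with a median log2 fold change of -2.49. Atf3 (ENSMUSG00000026628, chromosome 1, 190902493 to 190950236, minus strand), a stress-induced repressor of transcription, was at 18.7, 26.4 and 13.6 FPKM in IR 1 to IR 3, at 161, 158 and 724 in IR 4 to IR 6, and at 0.87 to 7.62 in IR-Ori (median 3.06). No IR-Ori library reached an IR library. It fell by 5.67 ± 0.93 (adjusted p = 0.00404), and without IR 4 to IR 6 the value was -2.43 (adjusted p = 0.103). Ier3, an early response gene linked to survival, ranged from 5.56 to 19.3 FPKM in IR and from 0.91 to 2.65 in IR-Ori and fell by 2.34 ± 0.32 (adjusted p = 0.000928). It is the 1 gene of this list still called without IR 4 to IR 6, with a fall of 2.05 (adjusted p = 0.0259). The AP-1 subunit Jun fell by 3.55 ± 0.67, its partner Fos by 4.66 ± 0.92, the zinc finger factors Egr1 and Klf6 by 4.32 ± 0.82 and 3.44 ± 0.62, and the small Maf protein Maff by 4.41 ± 0.94. IR 6 set the size of several of these. Without it the log2 fold changes were -2.25 for Jun, -2.57 for Fos, -2.51 for Egr1 and -2.88 for Maff, all still called. Fosb, of the same list, was at -2.05 without IR 6 and lost its call (adjusted p = 0.0935). Fosl2, Jund and Nr4a1, also called, each lost their call in at least 1 fit with a library left out (highest adjusted p 0.114, for Fosl2). Myc, a transcription factor of cell growth in the same list, did not pass (-1.71, adjusted p = 0.129).

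Dusp5 and Dusp4, feedback genes of MAP kinase signalling, fell and did not overlap between the groups. Of 14 MAP kinase phosphatases and ERK feedback genes tested, 7 fell and 0 rose (median -1.63). Dusp5 (ENSMUSG00000034765, chromosome 19, 53517540 to 53530862, plus strand), a nuclear phosphatase for ERK, ranged from 2.65 to 28.5 FPKM in IR, from 0.15 to 1.22 in IR-Ori and from 0.33 to 1.02 in sham. All IR libraries were above all others of these 3 groups. It fell by 4.49 ± 0.62 (adjusted p = 0.000981) and by 2.42 without IR 4 to IR 6 (adjusted p = 0.0293). Dusp4, a nuclear phosphatase for several MAP kinases, ranged from 0.49 to 12 FPKM in IR and from 0.03 to 0.33 in IR-Ori, where IR-Ori 3 was highest, and fell by 4.94 ± 0.73 (2.88 without IR 4 to IR 6, adjusted p = 0.0362). The ERK phosphatase Dusp6 fell by 2.04 ± 0.43 and Dusp10, which acts on JNK and p38, by 1.94 ± 0.39. Dusp1, the early phosphatase for p38 and JNK, did not pass (-0.73, adjusted p = 0.503). Of 11 EGF ligands, receptors and related genes tested, 3 fell, all of them ligands of the EGF receptor (list median -0.40). Hbegf fell by 4.67 ± 0.99 (adjusted p = 0.0152, and -2.33 without IR 6, still called), Ereg by 2.94 ± 0.68 and Tgfa by 1.41 ± 0.36. The calls of Ereg and Tgfa were lost without one or more of IR 4, IR 5, IR 6, IR-Ori 1, IR-Ori 2, IR-Ori 3, IR-Ori 4 or IR-Ori 6 (highest adjusted p 0.114, for Tgfa). Egfr, the receptor, was not called (0.40, adjusted p = 0.347), and Areg did not pass the filter on low counts.

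Oxidative and nutrient stress genes fell in part. Of 24 NRF2 target and regulator genes tested, 5 fell and 0 rose (median -0.83). Srxn1, which repairs oxidised peroxiredoxins, ranged from 47.4 to 852 FPKM in IR (median 138) and from 15.1 to 30.8 in IR-Ori, without overlap, and fell by 3.21 ± 0.54 (adjusted p = 0.00429). The cystine carrier Slc7a11 was at 0.09 to 0.77 FPKM in IR and at 0 to 0.04 in IR-Ori, and fell by 4.74 ± 0.84, a value that depends on counts near 0. Gclc, which makes the first bond of glutathione, fell by 1.82 ± 0.42, the thioredoxin reductase Txnrd1 by 1.28 ± 0.31 and the glutathione transferase Gsta1 by 2.70 ± 0.65 (-1.73 without IR 5). These 3 calls were lost without one or more of IR 4, IR 5, IR 6, IR-Ori 1, IR-Ori 2, IR-Ori 3, IR-Ori 4 or IR-Ori 6 (highest adjusted p 0.109, for Gsta1). Reads of Gsta1 may be shared with its close relative Gsta2. Nfe2l2 itself was not called, at 17.9 to 37.2 FPKM in IR and 17.5 to 39 in IR-Ori (log2 fold change 0.03 ± 0.27). Heme oxygenase, Hmox1, ranged from 23.8 to 481 FPKM in IR and from 6.62 to 66.7 in IR-Ori, with overlap, and did not pass (-1.88 ± 0.67, adjusted p = 0.107). None of the 24 was called without IR 4 to IR 6, by edgeR, where the list's median was -0.18.

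Of 18 genes of the integrated stress response, the ATF4 programme that answers amino acid shortage and unfolded proteins, 7 fell and 0 rose (median -0.98). Beside Slc7a11 they include Chac1, which degrades glutathione (-2.98 ± 0.67), Ppp1r15a, which ends the response by removing the phosphate from eIF2 alpha (-1.85 ± 0.45), the pseudokinase Trib3 (-1.44) and the leucine sensor Sesn2 (-1.40). Without IR 6 those of Chac1, Ppp1r15a and Sesn2 were -1.89, -1.05 and -0.87, and all 4 calls were lost without one or more of IR 4, IR 5, IR 6, IR-Ori 1, IR-Ori 2, IR-Ori 3, IR-Ori 4, IR-Ori 5 or IR-Ori 6 (highest adjusted p 0.137, for Sesn2). Atf4 was not called, at 73.8 to 144 FPKM in IR and 73.2 to 123 in IR-Ori (-0.07 ± 0.21). Of 20 ER chaperone and unfolded protein response genes tested 1 fell, the ER Hsp70 Hspa5 (-1.68 ± 0.36, adjusted p = 0.0159), and the list's median was -0.37. Here the highest IR score belonged to IR 2, not to IR 4 to IR 6.

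Glucose use, growth arrest and cell death genes had fewer calls, all of them falls. Of 25 hypoxia and glycolysis genes tested, 5 fell and 0 rose (median -0.85). Pkm, the pyruvate kinase of most tissues other than mature hepatocytes, ranged from 2.93 to 11.2 FPKM in IR and from 1.13 to 2.43 in IR-Ori, without overlap, and fell by 1.72 ± 0.29 (adjusted p = 0.00473). The glucose carrier Slc2a1 ranged from 5.02 to 15.5 and from 2.4 to 4.95 and fell by 1.50 ± 0.27. The hexokinase Hk1 and the phosphofructokinase Pfkp, isoforms of tissues other than mature liver, fell by 1.17 ± 0.32 and 1.23 ± 0.32, and the vasodilator peptide Adm by 1.72 ± 0.47. Of 21 p53 target and growth arrest genes 4 fell (median -0.91). Gadd45a, a DNA damage response gene, ranged from 6.67 to 251 FPKM in IR and from 1.99 to 4.75 in IR-Ori and fell by 4.20 ± 0.73 (1.57 without IR 4 to IR 6, adjusted p = 0.0312). The antiproliferative Btg1 fell by 2.71 ± 0.54. The cell cycle inhibitor Cdkn1a had a median of 24.4 FPKM in IR, 7.99 in IR-Ori and 0.68 in sham, with overlap between IR and IR-Ori, and did not pass (-1.94 ± 0.90, adjusted p = 0.194). Of 22 BCL2 family and cell death genes 2 fell, the survival protein Mcl1 (-1.66 ± 0.38) and the death activator Bcl2l11 (-1.69 ± 0.39), with a list median of -0.06. In the autophagy list 2 of 24 fell, the cargo receptor Sqstm1 (-1.95 ± 0.43) and Map1lc3a (-1.30). Of 12 ferroptosis genes 3 fell, Slc7a11, Chac1 and the polyamine acetylase Sat1 (-1.66), with a median of -0.81. Calls of Hk1, Pfkp, Adm, Mcl1, Bcl2l11, Sqstm1, Map1lc3a and Sat1 were lost without one or more of IR 4, IR 5, IR 6, IR-Ori 1, IR-Ori 2, IR-Ori 3, IR-Ori 4, IR-Ori 5 or IR-Ori 6 (highest adjusted p 0.139, for Adm).

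Ccl2, Ccl7 and Cxcl2, chemokines that recruit myeloid cells, fell and were higher in every IR library than in any IR-Ori library. Of 16 chemokines tested 7 fell and 0 rose (median -1.25). Ccl2 (ENSMUSG00000035385, chromosome 11, 81926397 to 81928279, plus strand), the main attractant of monocytes, was at 9.08, 6.08, 4.29, 10.9, 13.2 and 10.5 FPKM in IR 1 to IR 6 and at 1.96, 1.09, 1.65, 0.76, 0.96 and 0.34 in IR-Ori 1 to IR-Ori 6. The groups did not overlap, and IR 4 to IR 6 were the highest. It fell by 2.95 ± 0.40 (adjusted p = 0.000787) and by 2.60 without IR 4 to IR 6 (adjusted p = 0.0293). Ccl7, a second ligand of the same receptor, ranged from 3.26 to 10.2 FPKM in IR and from 0.08 to 0.91 in IR-Ori and fell by 3.80 ± 0.54 (3.41 without IR 4 to IR 6, adjusted p = 0.0313). Cxcl2, a neutrophil attractant, ranged from 4.3 to 11.1 FPKM in IR and from 0.04 to 1.17 in IR-Ori and fell by 3.39 ± 0.60 (adjusted p = 0.0057). Without IR 4 to IR 6 its log2 fold change was -3.07 with an adjusted p of 0.146. Cxcl1, an attractant of the same cells, did not pass, at 46.6 to 271 FPKM in IR (median 143) and 36.7 to 479 in IR-Ori (median 172, log2 fold change 0.62 ± 0.69, adjusted p = 0.59). The highest levels were in IR-Ori 2 and IR-Ori 3. Cxcl1 was named after its values were seen. Ccl6, made by myeloid cells, fell by 1.78 ± 0.36. In these whole-tissue libraries fewer cells of a type and less RNA per cell cannot be told apart.

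The inflammasome list, which holds the known oridonin target, had 1 call among 18 genes tested (median -0.18). Il1b (ENSMUSG00000027398, chromosome 2, 129206490 to 129213059, minus strand), the cytokine that inflammasomes process, ranged from 4.41 to 15.6 FPKM in IR, from 0.78 to 2.98 in IR-Ori and from 0.45 to 2.44 in sham. IR 1 was the highest IR library and IR 6 the lowest, and all 6 were above IR-Ori. It fell by 2.18 ± 0.44 (adjusted p = 0.0117), and without IR 4 to IR 6 the log2 fold change was -2.38 with an adjusted p of 0.0633. Nlrp3 ranged from 0.2 to 0.72 FPKM in IR and from 0.09 to 0.23 in IR-Ori, overlapped, and missed the threshold (-1.48 ± 0.42, adjusted p = 0.0538). Tnf, at 0.08 to 1.03 FPKM in IR and 0.08 to 0.53 in IR-Ori, did not pass either (-0.97 ± 0.61, adjusted p = 0.325), and Il6 did not pass the filter on low counts. Of 23 cytokine and receptor genes 5 fell (median -0.60), among them Il1b, the interleukin 4 receptor Il4ra (-1.40 ± 0.28) and the alarmin Il33 (-2.17 ± 0.47). Of 21 Toll-like receptor and danger sensing genes 5 fell (median -0.33), among them Tlr2, the receptor of bacterial lipoproteins (-1.76 ± 0.38), Clec4e, a sensor of dead cells (-3.00 ± 0.66), and Cd14, the endotoxin co-receptor (-1.83 ± 0.51). Calls of Il33, Tlr2, Clec4e and Cd14 were lost without one or more of IR 1, IR 4, IR 5, IR 6, IR-Ori 1, IR-Ori 2, IR-Ori 3, IR-Ori 5 or IR-Ori 6 (highest adjusted p 0.122, for Cd14). In the NF-kB list 1 of 19 fell, the subunit Relb (-1.05 ± 0.28), a call lost without IR 1, IR 4, IR 5, IR 6, IR-Ori 1, IR-Ori 2, IR-Ori 3, IR-Ori 4, IR-Ori 5 or IR-Ori 6 (highest adjusted p 0.12).

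Part of the markers of infiltrating myeloid cells fell. Of 14 monocyte and recruited macrophage genes tested 7 fell and 0 rose (median -1.44). Chil3, a secreted lectin of monocytes and neutrophils, ranged from 2.42 to 27.9 FPKM in IR, from 0.3 to 0.62 in IR-Ori and from 0.03 to 0.7 in sham, and fell by 4.60 ± 0.57 (3.26 without IR 4 to IR 6, adjusted p = 0.0159). F13a1, the factor XIII chain of macrophages and platelets, ranged from 0.42 to 4.87 and from 0.02 to 0.2 FPKM and fell by 4.15 ± 0.53 (3.26 without IR 4 to IR 6, adjusted p = 0.0179). Vcan, a proteoglycan of monocytes, fell by 2.60 ± 0.54 and the myeloid integrin Itgam by 1.53 ± 0.32. Of 11 neutrophil genes tested 3 fell (median -1.86), S100a9 (-2.08 ± 0.54), the lectin Clec4d (-2.37 ± 0.55) and the receptor Trem1 (-2.93 ± 0.72), and these calls were lost without one or more of IR 4, IR 5, IR 6, IR-Ori 1, IR-Ori 2, IR-Ori 3, IR-Ori 4 or IR-Ori 6 (highest adjusted p 0.128, for S100a9). S100a8, the partner of S100a9, did not pass (-1.86, adjusted p = 0.0713). The summed FPKM of the neutrophil list was 215 to 706 in IR, 66.6 to 213 in IR-Ori and 66.5 to 340.2 in sham. For the monocyte list it was 151 to 213, 97.4 to 160 and 81.2 to 147. Of 17 listed neutrophil genes 6, and of 17 monocyte genes 3, were below the filter on low counts. The part of these cells in the falls of chemokines and Il1b was not tested.

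None of 13 Kupffer cell, 16 sinusoidal endothelial, 15 stellate cell and fibroblast, 8 B cell, 3 T and NK cell, 8 erythroid and platelet, and 2 muscle or pancreas genes tested was called by edgeR. Of these 65 genes 7 were lower and 2 higher at an unadjusted p under 0.05, DESeq2 called 3 lower and limma 0. The erythroid and platelet score was higher in every IR library (2.75 to 3.68) than in any IR-Ori library (2.28 to 2.70), with summed FPKM of 103 to 362 (median 197) and 67.7 to 108 (median 87.4). The part of blood content in the falls of myeloid markers and chemokines was not tested. Clec4f, a lectin of Kupffer cells, was at 14.1 to 24.6 FPKM in IR and 20.2 to 42.7 in IR-Ori (0.74 ± 0.25, adjusted p = 0.0939). The summed FPKM of the Kupffer list ranged from 65.9 to 133 in IR, and in IR-Ori from 71.7 to 119.5. In IR the cholangiocyte score ran from 1.48 to 2.03, above all IR-Ori libraries, whose range was 1.19 to 1.39. Of 8 cholangiocyte genes 1 fell, the transcription factor Sox9, which hepatocytes also switch on after injury. Sox9 ranged from 1.75 to 41.7 FPKM in IR and from 0.45 to 2.12 in IR-Ori, with overlap, and fell by 3.24 ± 0.64 (adjusted p = 0.0114, and -1.82 without IR 6, still called). Epcam, a membrane protein of the duct cells, did not pass (-1.21, adjusted p = 0.0609).

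Part of the repair and cytoskeletal genes fell, among them Anxa2 and Thbs1, which were higher in every IR library than in any IR-Ori library. Of 31 matricellular, adhesion and wound repair genes tested 10 fell and 0 rose (median -1.07). Anxa2 (ENSMUSG00000032231, chromosome 9, 69360902 to 69399077, plus strand), a membrane-bound annexin that binds plasminogen activator, ranged from 5.11 to 56.5 FPKM in IR, from 1.31 to 2.45 in IR-Ori and from 1.39 to 2.22 in sham. IR 1 to IR 3 were close together at 5.11 to 6.14 FPKM, all above every IR-Ori value, and IR 5 was highest. It fell by 2.99 ± 0.44 (adjusted p = 0.00162) and by 1.64 without IR 4 to IR 6 (adjusted p = 0.00159). Its partner S100a10 fell by 1.89 ± 0.36. Thbs1, which activates TGF-beta, ranged from 2.16 to 11.7 FPKM in IR and from 0.07 to 0.97 in IR-Ori and fell by 3.57 ± 0.54 (3.07 without IR 4 to IR 6, adjusted p = 0.0313). Ccn1, a matricellular target of YAP, fell by 3.90 ± 0.64 (1.62 without IR 4 to IR 6, adjusted p = 0.0313). The hyaluronan binding protein Tnfaip6 fell by 4.57 ± 0.75, and Cd44, the hyaluronan receptor, by 1.49 ± 0.26.

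Of 28 tubulin, actin and keratin genes 9 fell and 0 rose (median -0.87). Actg1, cytoplasmic gamma actin, was at 17.2, 15.5 and 49.6 FPKM in IR 1, IR 3 and IR 2, at 117, 149 and 282 in IR 4 to IR 6 and at 5.55 to 13.2 in IR-Ori. The groups did not overlap, though the lowest IR library lay close to the highest IR-Ori library. It fell by 3.40 ± 0.59 (adjusted p = 0.00552), and without IR 4 to IR 6 the value was -1.47 (adjusted p = 0.423). The hepatocyte keratin Krt8 fell by 2.60 ± 0.54 and the beta tubulin Tubb2a by 2.37 ± 0.50, and reads of Tubb2a may be shared with Tubb2b. Krt18, the partner of Krt8, fell by 1.45 ± 0.33, a call lost without one or more of IR 4, IR 5, IR 6, IR-Ori 1 or IR-Ori 6 (highest adjusted p 0.0618). Of 18 TGF-beta and SMAD genes 4 fell (median -0.78), among them Tgfb1 (-1.21 ± 0.27), the activin binding protein Fst (-2.01 ± 0.50) and the decoy receptor Bambi (-1.03 ± 0.26), all lost without one or more of IR 4, IR 5, IR 6, IR-Ori 1, IR-Ori 2, IR-Ori 3, IR-Ori 4 or IR-Ori 6 (highest adjusted p 0.0954, for Bambi).

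Sprr1a and Lor are known from the cornified layer of skin. They were among the 15 largest falls of called protein-coding genes without overlap that averaged 1 FPKM or more in IR. Sprr1a was at 20, 17.9, 2.49, 90.9, 11.4 and 1.27 FPKM in IR 1 to IR 6, 0 to 0.63 in IR-Ori and 0 to 0.44 in sham. IR 4 was highest and IR 6 lowest, and IR 1 and IR 2 lay above IR 5. It fell by 6.74 ± 1.01 (adjusted p = 0.00179) and by 6.08 without IR 4 to IR 6 (adjusted p = 0.00474). Lor was at 0.38 to 8.76 FPKM in IR and 0.03 to 0.25 in IR-Ori and fell by 4.32 ± 0.77. The sizes of the falls of Sprr1a and Lor depend on counts near 0 in IR-Ori. The epidermal keratin Krt10 was at 0.63 to 1.62 FPKM in IR and 0.94 to 1.67 in IR-Ori (0.23, adjusted p = 0.692), and Krt1, Krt5 and Krt14 did not pass the filter on low counts. Krt10 was looked at after the values of Sprr1a were seen.

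The 26 calls that held without IR 4 to IR 6 name genes of several of these groups. Beside Hspa1a, Hspa1b, Hspb1, Ier3, Dusp4, Dusp5, Gadd45a, Ccl2, Ccl7, Chil3, F13a1, Anxa2, Thbs1, Ccn1, Sprr1a and Lor they include the vessel growth factor Angpt2 (-3.89 over all libraries, -2.90 without IR 4 to IR 6), the collagenase Mmp13 (-5.26 and -4.46), the early response gene Ier5 (-2.74 and -1.45), the platelet and leukocyte protein Plek (-2.29 and -1.82), the scramblase Plscr1 (-2.67 and -1.21) and the lipoxygenase Aloxe3 (-4.54 and -3.47). These 6 were named after their values were seen. The others are Efr3b, Col16a1, the pseudogene Gm8818 and Ugt2b37. In IR-Ori the highest level was 0.12 FPKM for Angpt2, 0.3 for Mmp13, 0.18 for Aloxe3, 0.33 for Dusp4 and 0.2 for F13a1. The sizes of these falls depend on counts near 0. In Mmp13, Aloxe3, Efr3b, Col16a1 and Ugt2b37 IR and IR-Ori overlapped. Over all libraries the calls of Col16a1 and Ugt2b37 were lost without one or more of IR 2, IR 4, IR-Ori 1, IR-Ori 2, IR-Ori 3, IR-Ori 4 or IR-Ori 6 (highest adjusted p 0.131, for Col16a1). IR 1 to IR 3 are part of both fits, so the count of 26 is no independent test.

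**Figure D4:**
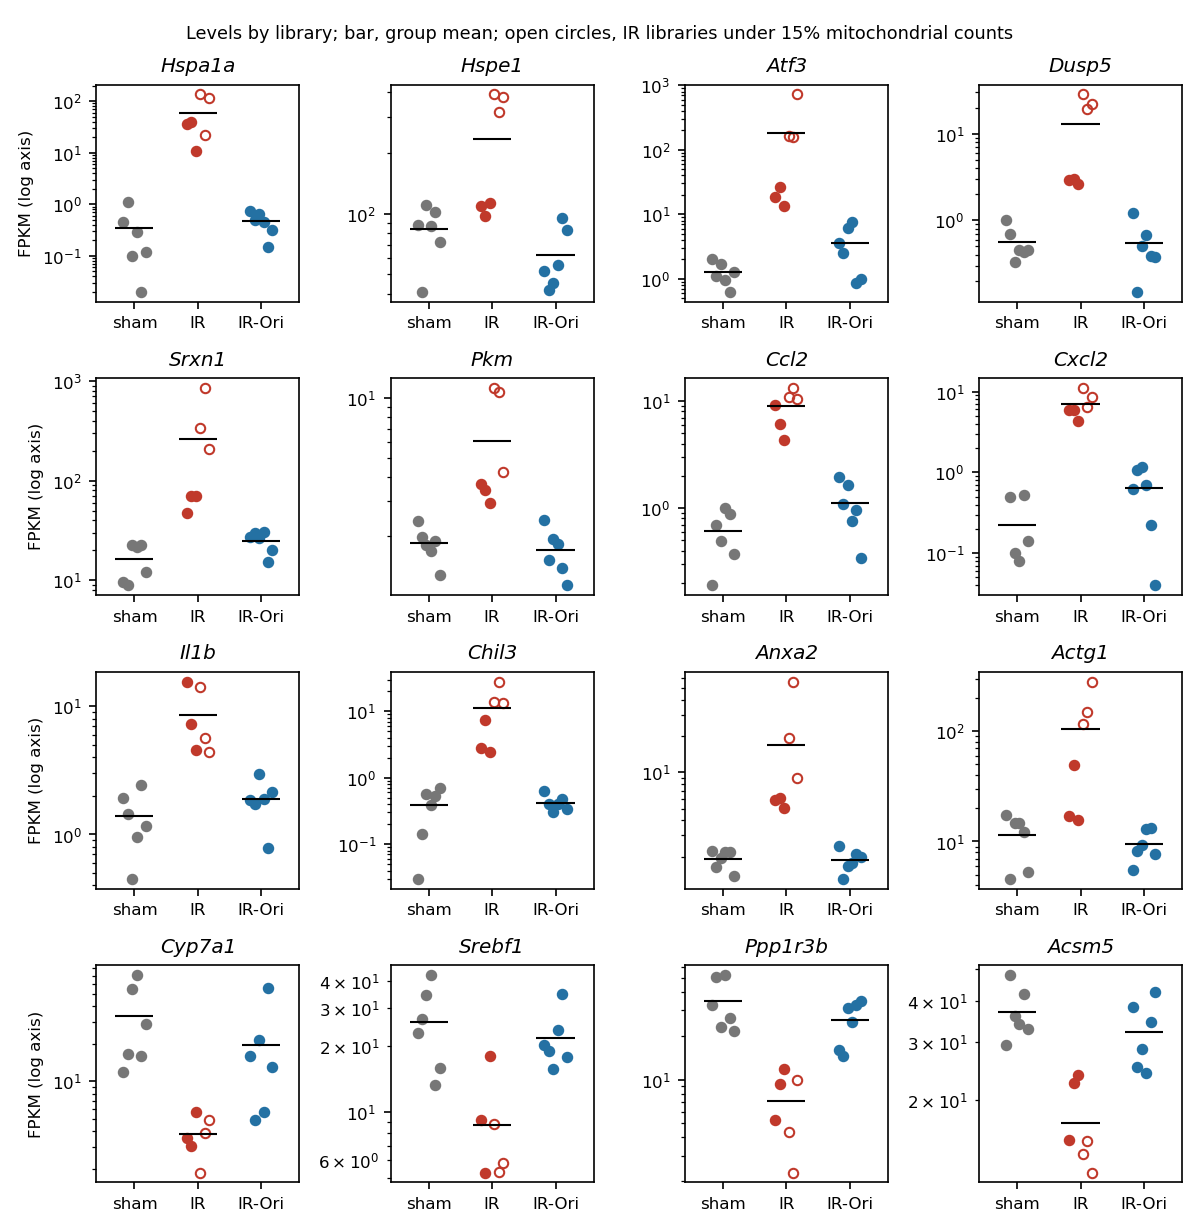
Each panel plots the FPKM of 1 gene on a log axis for the 6 sham, 6 IR and 6 IR-Ori libraries, with a bar at the group mean and open circles for the IR libraries under 15% mitochondrial counts. In Ccl2, Cxcl2, Il1b and Chil3 the filled IR points already lie above IR-Ori, while in Hspe1 and Actg1 the open circles are set apart from them. In Cyp7a1, Srebf1, Ppp1r3b and Acsm5 the IR points lie low.

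The genes that rose with oridonin were fewer than those that fell, and their changes smaller. Ppp1r3b (ENSMUSG00000046794, chromosome 8, 35842893 to 35855293, plus strand), which brings protein phosphatase to glycogen, ranged from 2.29 to 11.9 FPKM in IR (median 7.28), from 14.6 to 35.1 in IR-Ori (median 28.2) and from 21.7 to 52.5 in sham. No IR library reached IR-Ori or sham. It rose by 1.87 ± 0.38 (adjusted p = 0.0131), and without IR 4 to IR 6 the value was 1.59 (adjusted p = 0.179). It is the 1 call among 21 gluconeogenesis and glycogen genes tested (median 0.24). Zfand4 reached at most 4.27 FPKM in IR and was at 4.92 or more in IR-Ori (up 1.76 ± 0.30, adjusted p = 0.00522). Sec31b, a coat protein of ER export vesicles, had a median of 0.57 FPKM in IR and 2.12 in IR-Ori and rose by 1.54 ± 0.28. Acsm5, a mitochondrial acyl-CoA synthetase, had medians of 15.1 and 31.6 FPKM and rose by 0.97 ± 0.20, and Tlcd1 medians of 4.57 and 9.31 and rose by 1.01 ± 0.21. In these 4 genes, too, no IR library reached an IR-Ori library, a condition of the rule that named them. The triose kinase of fructose metabolism, Tkfc, rose by 1.49 ± 0.35, the P450 Cyp2j6 by 1.01 ± 0.22, and Rwdd2a by 1.66 ± 0.38. The corepressor Tle2 rose by 1.18 ± 0.30, the replication factor Mcm10 by 0.95 ± 0.25 and the actin binding protein Ablim1 by 0.90 ± 0.23. Calls of these 6 genes were lost without one or more of IR 2, IR 4, IR 5, IR 6, IR-Ori 1, IR-Ori 2, IR-Ori 3, IR-Ori 4 or IR-Ori 6 (highest adjusted p 0.0988, for Mcm10). No rise passed without IR 4 to IR 6 by edgeR.

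In bile acid synthesis and transport 1 of 24 genes tested rose and 0 fell (median 0.25). It was Cyp7a1 (ENSMUSG00000028240, chromosome 4, 6265612 to 6275633, minus strand), the rate-limiting enzyme of bile acid synthesis, at 1.87 to 5.69 FPKM in IR (median 3.72), 4.96 to 55.8 in IR-Ori (median 14.4) and 11.9 to 70.5 in sham. IR-Ori 2 alone lay within the IR range, and IR-Ori 5 was far above the others. It rose by 2.36 ± 0.55 (adjusted p = 0.0241), a call lost without IR 4 or IR 5 (highest adjusted p 0.0669), and without IR 4 to IR 6 the value was 2.22 (adjusted p = 0.767). Of 16 fatty acid synthesis genes 2 rose and 0 fell, with a median of 0.60, the highest of the lists. Srebf1, the factor that drives the pathway, ranged from 5.28 to 18 FPKM in IR and from 15.7 to 34.7 in IR-Ori and rose by 1.35 ± 0.34. Acaca, which makes malonyl-CoA, rose by 1.03 ± 0.24. Both calls were lost without one or more of IR 4, IR 5, IR 6, IR-Ori 1, IR-Ori 2, IR-Ori 3, IR-Ori 4 or IR-Ori 6 (highest adjusted p 0.0817, for Srebf1). Fasn, the synthase itself, was higher in every IR-Ori library (10.2 to 42.1 FPKM) than in any IR library (5.66 to 8.05) and did not pass (1.51 ± 0.47, adjusted p = 0.0733). IR-Ori 5, the library of that group with the lowest mitochondrial share, had the highest fatty acid and cholesterol synthesis scores of the 6. Among the nuclear receptors, the farnesoid receptor paralogue Nr1h5 rose by 2.06 ± 0.57, a call lost without IR 4, IR 5, IR 6, IR-Ori 1, IR-Ori 2, IR-Ori 3, IR-Ori 5 or IR-Ori 6 (highest adjusted p 0.12).

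Plin2 and Pdk4, genes of lipid storage and use, fell. Of 30 fatty acid oxidation and ketogenesis genes tested 2 fell and 0 rose (median -0.42, and 0.16 without IR 4 to IR 6). The lipid droplet coat Plin2 ranged from 101 to 763 FPKM in IR and from 40 to 123 in IR-Ori and fell by 2.39 ± 0.48 (adjusted p = 0.0114). Pdk4, which blocks pyruvate oxidation, ranged from 3.87 to 362 FPKM in IR and from 0.42 to 6.84 in IR-Ori and fell by 4.51 ± 1.20 (-2.62 without IR 6), a call lost without IR 4, IR 5, IR 6, IR-Ori 1, IR-Ori 2, IR-Ori 3, IR-Ori 4, IR-Ori 5 or IR-Ori 6 (highest adjusted p 0.161).

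Large parts of the hepatocyte programme gave no call by edgeR. These were the 25 acute phase, 20 hepatocyte secretory, 29 complement and coagulation, 30 urea cycle and amino acid, 31 drug-metabolising P450, 16 pericentral and 24 cholesterol genes tested, with medians from -0.16 to 0.42. Of the 172 distinct genes 3 were lower and 7 higher at an unadjusted p under 0.05, DESeq2 called 5 and limma 1. The 30 interferon-stimulated genes had 0 calls by edgeR and a median of 0.30, with 23 values above 0 (3 lower and 2 higher at an unadjusted p under 0.05, 1 called by DESeq2 and 0 by limma). Alb had a log2 fold change of 0.27 ± 0.32 (adjusted p = 0.61). None of 15 mitochondrially encoded, 42 nuclear respiratory chain, 48 cytosolic ribosome, 25 ribosome biogenesis and 17 cell cycle genes tested was called by edgeR, with medians from -0.32 to 0.31. Of these 147 genes 27 were lower and 3 higher at an unadjusted p under 0.05, DESeq2 called 4 lower and limma 0. Single falls came from the phase II list (Ugt2b37, 1 of 34), the periportal list (Cdh1, 1 of 14), the growth hormone list (Jak2, 1 of 17) and the iron list (Id1, 1 of 23). Their log2 fold changes were -2.79 for Ugt2b37 (-1.63 without IR 4), -1.23 for the adhesion protein Cdh1, -0.87 for the kinase Jak2 and -1.91 for Id1, a target of bone morphogenetic proteins (-1.23 without IR 6). All 4 calls were lost without one or more of IR 4, IR 5, IR 6, IR-Ori 1, IR-Ori 2, IR-Ori 3, IR-Ori 4 or IR-Ori 6 (highest adjusted p 0.13, for Ugt2b37). Reads of Ugt2b37 may be shared with other members of the Ugt2b family. A value that missed the threshold does not show that a gene stayed the same.

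**Figure D5:**
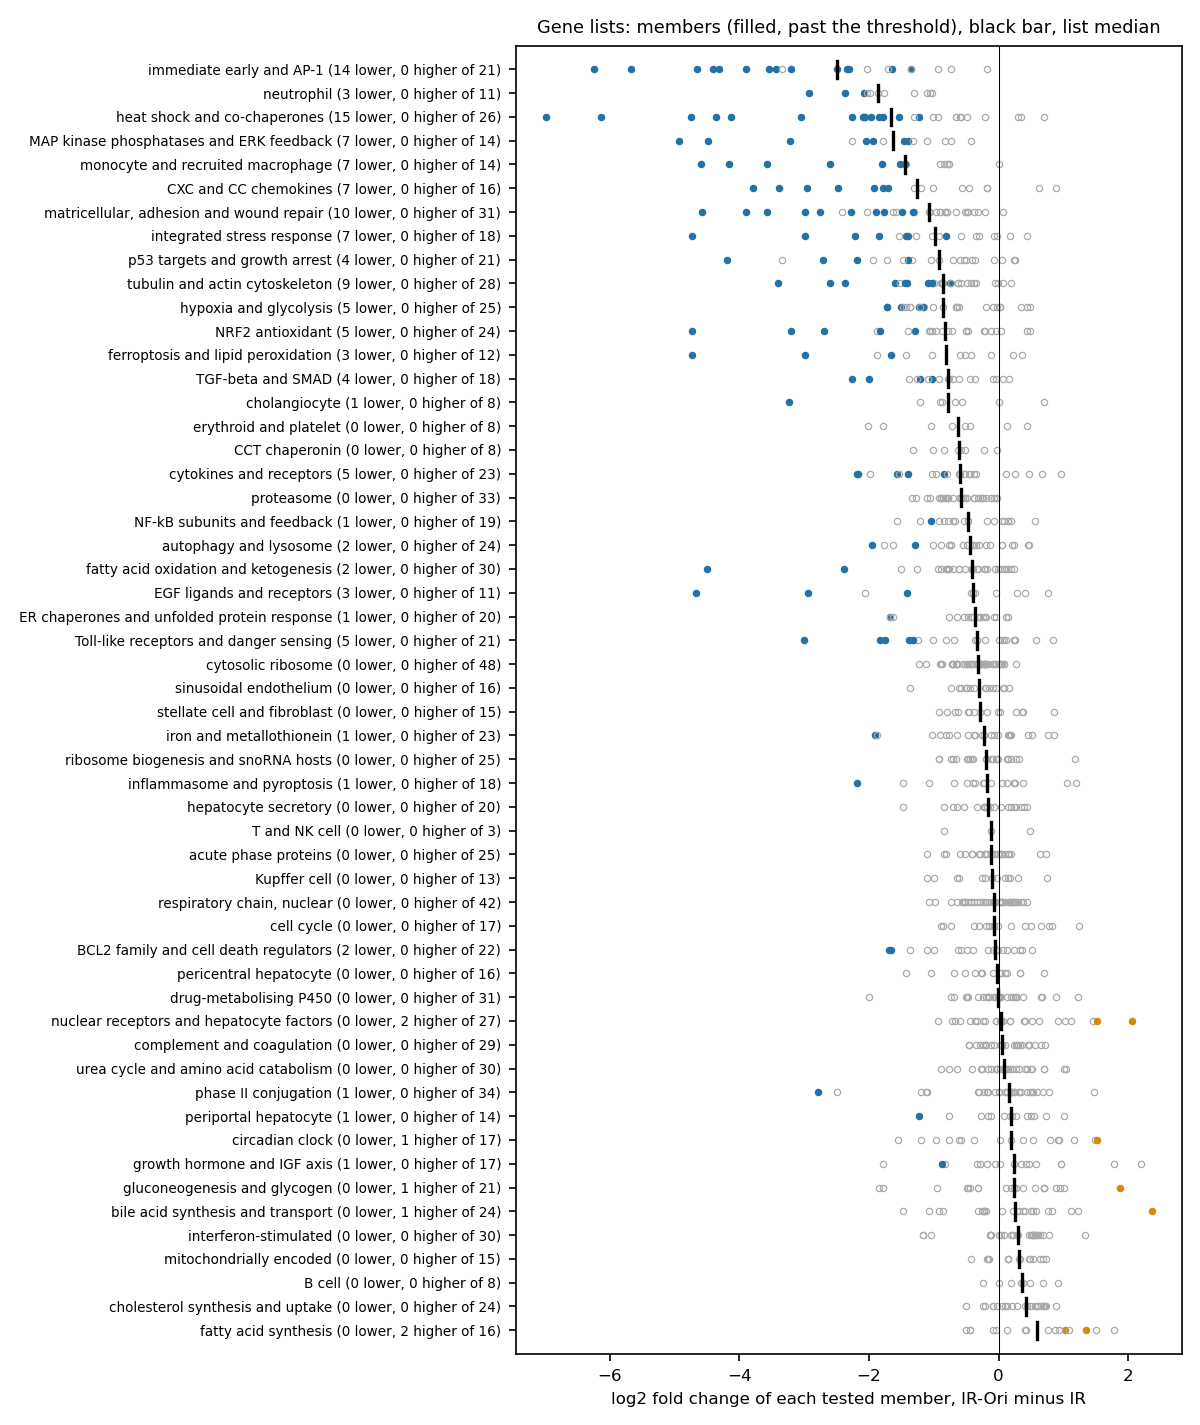
Each row is a gene list and each circle a tested member at its log2 fold change, IR-Ori minus IR, filled where it passed the threshold (blue lower, orange higher), with a black bar at the list median. Immediate early, neutrophil and heat shock genes have the lowest medians and fatty acid synthesis the highest.

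No gene passed the edgeR threshold between IR-Ori and sham, which does not show that the groups were alike. Between IR-Ori and sham edgeR called 0 of 14595 genes (0%, 1460 had an unadjusted p under 0.05, the smallest adjusted p was 0.374), limma called 0 and DESeq2 36, 32 of them higher in IR-Ori. Between IR and sham edgeR called 806 genes higher (5.52%) and 345 lower (2.36%) in IR, and the comparisons share libraries, so their values are only set side by side. The log2 fold change of Hspa1a was 7.40 for IR minus sham and 0.42 for IR-Ori minus sham. For Hspb1 these were 4.88 and 0.75, for Atf3 7.15 and 1.48, for Ccl2 3.85 and 0.90, for Cdkn1a 3.91 and 1.97, and for Cyp7a1 -3.14 and -0.78. The positive values of Hspb1, Atf3 and Cdkn1a in IR-Ori minus sham did not pass (adjusted p = 0.536, 0.501 and 0.498). Of the 439 genes that fell with oridonin 339 were also called in IR against sham, and of the 87 that rose 50.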

How the data were processed

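RNA-seq was made from whole liver RNA of 18 libraries, 6 per group. The submitters' processing notes name cutadapt 1.9.1, HISAT2 2.2.1, DESeq2 (no version) and the build GRCm39. The counter, the annotation release and the use of strand were not stated. The authors deposited, in one table of 56691 genes, read counts per gene and FPKM. Recomputing FPKM from the counts, the deposited gene lengths and the library totals returned the deposited FPKM within 0.0051 for 100% of values, so these totals include mitochondrial counts and the FPKM of nuclear genes is lower where the mitochondrial share is higher. No 2 libraries held the same counts. Biotypes came from GENCODE M21, which held 52073 of the IDs.

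The main test was that of edgeR 4.0.16, run on the counts under R 4.3.3 (TMM, filterByExpr with a minimum count of 10, quasi-likelihood F test, 1 fit over the 18 libraries with 3 groups and 15 residual degrees of freedom, Benjamini-Hochberg adjustment, two-sided, threshold 0.05). Adjusted p-values in the text come from it, and log2 fold changes are IR-Ori minus IR with the SE from the fit. Single values per library were compared by an exact permutation test over all 924 splits, whose smallest p is 0.00216. Levels are FPKM, which allow comparison between genes per length. The fit was tested on simulated data.

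The comparison, its members and the 55 gene lists (1075 distinct genes tested) were chosen with earlier results of these data known. Lists are described by their counts and median, without a test. The 9 listed symbols that were not matched to the table were left out. Genes were named by a rule: in each direction, the 15 largest fold changes among called protein-coding genes whose groups did not overlap and whose higher group averaged 1 FPKM or more; from each list, the called genes of smallest p, up to 6 (or 2 where none was called); and 11 by name. Atf4, Cxcl1, Dnaja1, Dusp1, Egfr, Epcam, Fasn, Hsf1, Hsf2, Hspa8, Hspd1, Hspe1, Krt10, Myc and S100a8, and the genes given only as still called without IR 4 to IR 6, fall outside this rule and were chosen after their values were seen. Fosb, Fosl2, Jund and Nr4a1 were named for the loss of their calls when a library was left out.

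Alternatives were other size factors, filters and dispersion priors, DESeq2 1.42.0, limma 3.58.1 on log2(FPKM + 1) or log2(FPKM + 0.1), the mitochondrial share as a covariate, the replicate number as a block, the 12 libraries alone, and leaving out each library or the IR libraries under 15% mitochondrial counts. A result of the pathway lists is not reported here. Figures were drawn with matplotlib 3.10.9.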

Additional observations from a re-analysis of the deposited data

Results flagged for a closer look

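Of 190 values per group examined with Dixon's test for 6 samples, 20 had 1 library far from the other 5, and chance flags about 1 in 20.

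IR-Ori 5 stood apart most often. Its mitochondrial share was 14.1%, against 26.8% to 32.0% in the other IR-Ori libraries. Its mean log2(FPKM + 1) was high for fatty acid synthesis (5.55, the others up to 4.76), cholesterol synthesis and uptake (4.53, the others up to 3.24), phase II conjugation (5.68, up to 4.96), complement and coagulation (6.57, up to 6.26), nuclear respiratory chain genes (6.30, up to 5.80) and autophagy and lysosome (3.94, up to 3.49). It was low for mitochondrially encoded genes (9.9996, the others from 10.74).

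Elsewhere in IR-Ori, IR-Ori 3 was high for chemokines (1.897, up to 1.62) and Dusp4 (0.411 on the log2(FPKM + 1) scale, up to 0.138) and low for stellate cell genes (1.49, from 1.66). IR-Ori 6 was high for B cell genes (1.33, up to 0.86). Maff was low in IR-Ori 2 (0.70, from 1.63), and Zc3h8 high in IR-Ori 1 (3.20, up to 2.60).

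In IR, IR 1 was low for hepatocyte secretory genes (9.94, from 10.55), Alb (13.5, from 13.9) and Rwdd2a (0.43, from 0.80). IR 2 was high for ER chaperones and the unfolded protein response (6.29, up to 5.72) and IR 4 for cytokines and receptors (3.31, up to 2.87). Zc3h8 was low in IR 6 (1.18, from 1.92).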

How the results depend on the processing

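Under the alternatives run, no called named gene changed direction, but the number of calls depended on the libraries and the test. Against 439 genes lower and 87 higher with oridonin, leaving out 1 library gave 140 to 737 lower and 11 to 319 higher. The counts were 29 and 0 by edgeR without the IR libraries under 15% mitochondrial counts, and 2043 and 2008 without those over 15%. With only libraries over 15% from all groups they were 15 and 0, and with only those under 15% (1 IR-Ori library, taken to vary like the other groups) 5 and 5. These last 3 settings were chosen after the data were seen. With the mitochondrial share as a covariate 231 fell, with a minimum count of 50 292, with the 12 libraries alone 148 fell and 24 rose, and at an adjusted p under 0.01 59 fell and 2 rose. DESeq2 gave 903 and 428. On log2(FPKM + 1) limma gave 95 and 38, with a pseudocount of 0.1 76 and 28, without a filter 61 and 7, and after quantile normalization 146 lower. The cause of these differences was not tested. RLE size factors, no filter on low counts, robust dispersion and leaving out mitochondrial genes gave 404 to 469 lower and 81 to 85 higher. Of the 166 named genes 116 were called. With DESeq2 0 of these 116 lost their call and 16 other named genes gained a call. Without the IR libraries under 15% mitochondrial counts, 99 of the 116 lost their call by edgeR and 0 other named genes gained a call. The difference in mitochondrial share was 5.32 to 12.6 points with 1 library left out (12.6 without IR 1, exact permutation p = 0.0216).

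With the replicate number as a block 135 of 14595 genes fell (0.925%) and 28 rose (0.192%), 133 and 26 of them also called without the block. The labels do not say that a number is shared by anything but name. Deviations of same-numbered IR and IR-Ori libraries correlated at 0.0124 to 0.418, all above 0 but over 0.1 in 4 of 6 pairs, so the numbers were not taken to pair the samples. As a hint from the data that they may, 5 of 6 libraries matched their own number best. Under the block 64 of the 116 called among the 166 named genes lost their call. Calls left were 9 of 26 heat shock genes (15 without the block), 4 of 21 immediate early genes (14), 4 of 16 chemokines (7) and 4 of 14 MAP kinase phosphatase and ERK feedback genes (7).

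Depth limits genes of low counts: 14595 of 56691 genes passed the filter.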
